A study of Mus musculus with 8 samples.

Results

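Il10, Ebi3, Fgl2, Areg and Penk encode proteins through which regulatory T (Treg) cells restrain other immune cells or support tissue repair. These 5 genes were taken by symbol from a deposited RNA sequencing table of 24016 genes, all 5 were present, and all 5 were among the 12881 genes with a level of 1 or more reads per 1000000 (CPM) in 2 or more libraries. The table holds 8 libraries of CD4+ T cells from mouse spleen, sorted on a GFP reporter that marks expression of Foxp3, the defining transcription factor of Treg cells. They form 4 groups of 2 libraries, called replicates A and B. The monoclonal Treg group (reporter-positive) and the monoclonal non-Treg group (reporter-negative) came from NOD.TCRab.FoxP3GFP.Rag-/- mice, in which the T cells carry 1 rearranged receptor and Rag recombination is lost. The polyclonal Treg and polyclonal non-Treg groups came from NOD.FoxP3GFP mice with a diverse repertoire. All 4 groups share the NOD background, a strain prone to autoimmune diabetes, and the reporter. The labels call the monoclonal cells NT, for the nuclear transfer model of the study's title. They give no age, and whether a group's 2 libraries are separate animals is not stated, so p-values measure the spread between these libraries, which may be technical. Receptor and Rag genotype changed together between the mice and cannot be told apart.

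Treg cells act through secreted cytokines, surface molecules and growth factors. Interleukin-10, the product of Il10, is a dimeric cytokine that dampens macrophages and dendritic cells through a receptor of Il10ra and Il10rb. Ebi3 encodes a secreted subunit that joins the p35 chain (Il12a) in interleukin-35 and the p28 chain (Il27) in interleukin-27. Fgl2 encodes a fibrinogen-like protein whose secreted form binds the inhibitory receptor Fcgr2b, and it is also made by macrophages and dendritic cells. Areg encodes amphiregulin, a ligand of the epidermal growth factor (EGF) receptor that Treg cells release in injured tissue. Penk encodes proenkephalin, the precursor that is cleaved to enkephalin opioid peptides.

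In both kinds of mice the mean CPM of each of the 5 genes was at least as high in Treg as in non-Treg cells. The share of all genes with a higher mean in Treg cells was not computed. Their median log2 fold changes were near 0, at -0.0154 in monoclonal and 0.00216 in polyclonal mice. Some of the differences were slight, such as 0.380 against 0.321 CPM for Areg in polyclonal mice. With CD3 scaling the difference of Fgl2 in monoclonal mice (-0.04) and that of Areg in polyclonal mice (-0.03) were below 0. The 5 genes differed widely in size of effect and in dependence on the mouse. Penk was higher in Treg cells of both mice, and its level was 12.3 times as high in polyclonal as in monoclonal Treg cells. Fgl2 went the other way, at 20.2 times as high in monoclonal as in polyclonal Treg cells. Its mean in Treg cells was 1.44 (monoclonal) and 1.71 times (polyclonal) that in non-Treg cells. Neither of these effects had an adjusted p under 0.05 (limma). Ebi3 was higher in Treg cells of polyclonal mice, and Areg was close to the detection limit outside monoclonal Treg cells. Il10 was low everywhere, with Treg effects of similar size in both mice (log2 fold changes of 1.62 in monoclonal and 1.45 in polyclonal mice). Only the monoclonal effect on Il10 had an adjusted p under 0.05 (limma), and it lost that in several alternatives.

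**Figure D1:**
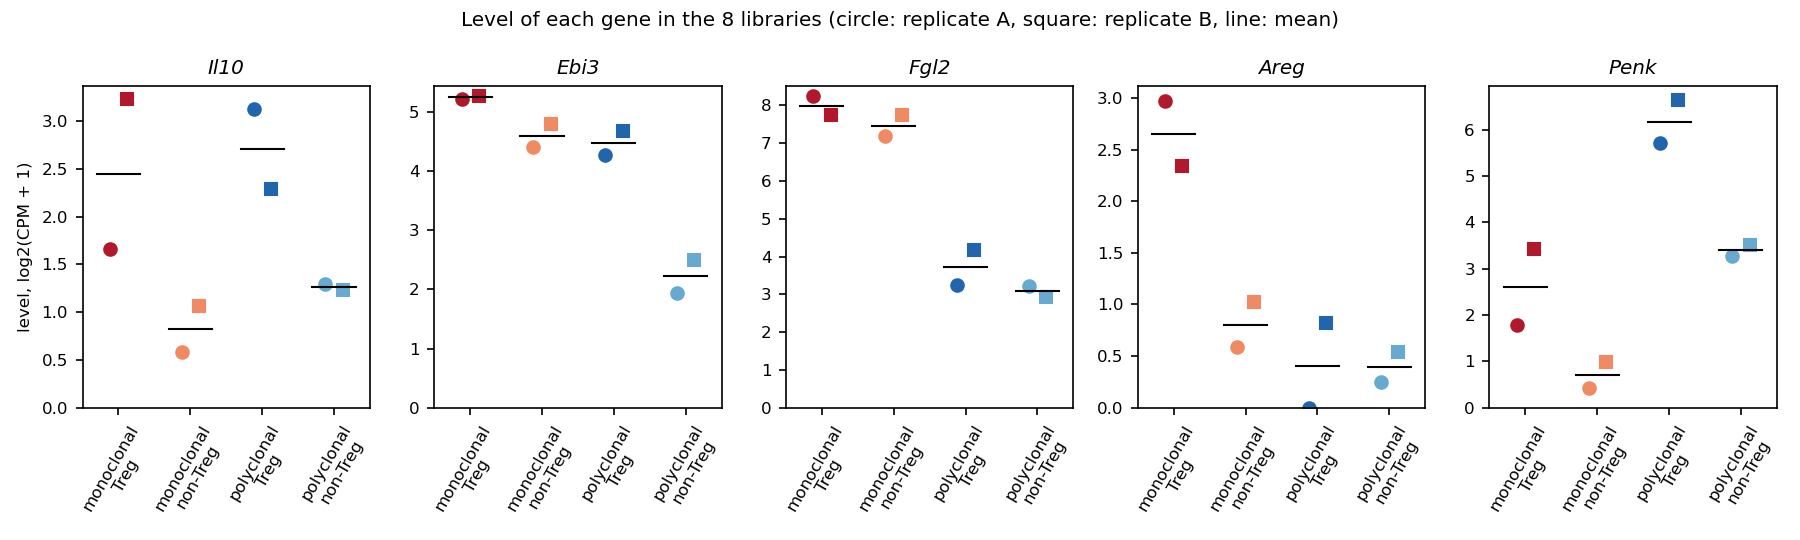
Level of Il10, Ebi3, Fgl2, Areg and Penk on the log2(CPM + 1) scale (vertical axis, from 0, with a separate range per gene) in the 4 groups (horizontal axis). Each point is 1 library and each line a group mean of n = 2. Fgl2 separates the monoclonal from the polyclonal libraries, Penk is highest in the polyclonal Treg libraries, and Areg is highest in the monoclonal Treg libraries.

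Of the 5 genes, 3 rose in monoclonal Treg against monoclonal non-Treg cells (Il10, Areg and Penk) and 0 fell, where 10.8% of all genes tested were higher and 13.6% lower (limma on log2(CPM + 1), adjusted p under 0.05). In polyclonal mice 2 rose (Ebi3 and Penk) and 0 fell, against 4.63% and 3.28% of all genes. The test of the difference between the 2 Treg effects called 1 gene, Ebi3, whose Treg effect was lower in monoclonal mice, against 3.64% higher and 5.56% lower of all genes. In monoclonal against polyclonal Treg cells, Fgl2 and Areg were higher and Penk lower, and 12.1% of all genes were called in each direction. In monoclonal against polyclonal non-Treg cells, Fgl2 and Ebi3 were higher and Penk lower, against 12.1% higher and 7.35% lower. With 5 genes, these counts describe the genes and say nothing of the group as a whole. The comparisons share libraries with one another, so their calls are not independent.

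The median log2 fold change of the 5 genes was 1.62 in the monoclonal Treg effect and 1.45 in the polyclonal one, and the medians over all genes tested were -0.0154 and 0.00216. All fold changes are on the log2(CPM + 1) scale, which understates the change of low genes. That applies most to Il10, Areg and Penk in monoclonal mice, where the non-Treg libraries held 6 to 17 reads of each gene.

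**Figure D2:**
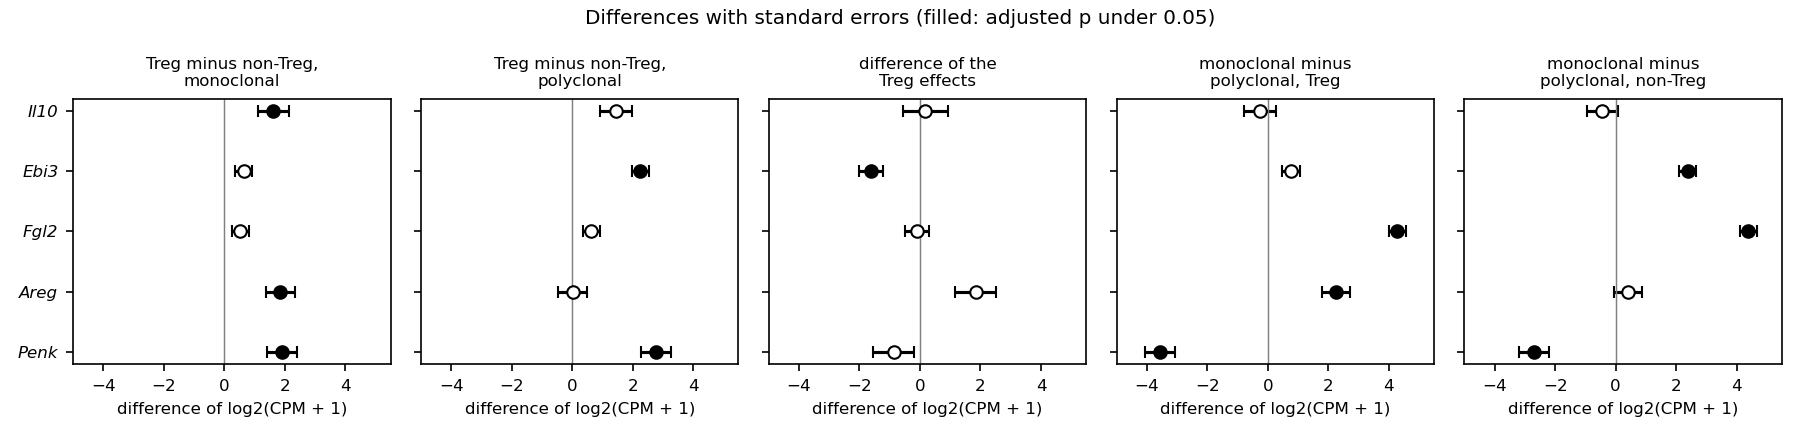
Difference of log2(CPM + 1) with its standard error (horizontal axis) for the 5 genes (vertical axis) in the 5 comparisons (panels). Filled points had an adjusted p under 0.05 and open points did not; the largest differences are those of Fgl2 between monoclonal and polyclonal cells, at 4.28 in Treg and 4.39 in non-Treg cells.

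Depth was 14076330 to 19722321 reads per library, and a count of 0 allows up to 0.152 to 0.213 CPM (3 reads, counting error only). Foxp3 ran in the order of the labels, at 2281 to 2709 CPM in the 4 Treg libraries. The non-Treg libraries had 81.9 to 84.2 CPM (polyclonal) and 319 to 405 CPM (monoclonal). Foxp3 was thus not equally low in the 2 non-Treg groups, and it was called higher in the monoclonal one (12.1% of all genes). Its Treg effect was called lower in monoclonal mice (5.56% of all genes). The part of Foxp3-expressing cells in the non-Treg levels of the 5 genes was not tested. The summed level of 6 CD4 T cell markers (Cd3d, Cd3e, Cd3g, Cd247, Cd4 and Cd5) was 3332 to 4310 CPM in Treg libraries, 4124 to 4175 CPM in polyclonal non-Treg and 2934 to 3074 CPM in monoclonal non-Treg libraries. Between the non-Treg groups 4 of the 6 (Cd5, Cd3e, Cd3g and Cd4) were lower in monoclonal cells (7.35% of all genes). Genes used as markers of other cell types were also detected. The sum of 9 dendritic cell markers was 47.7 to 74.6 CPM in the 4 polyclonal libraries, but 583 to 638 CPM (Treg) and 1961 to 2269 CPM (non-Treg) in the monoclonal ones. The sum of 9 macrophage and monocyte markers was 29.1 to 42.7 CPM, 313 to 504 CPM and 906 to 1003 CPM in the same order. In libraries of sorted bulk cells, fewer cells of a type and less RNA per cell cannot be told apart.

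The genes lie on 4 chromosomes in mm9, the build of the deposited table. Il10 (NM_010548) is on chromosome 1 from 132916422 to 132921547, Ebi3 (NM_015766) on chromosome 17 from 56092046 to 56096445, and Penk (NM_001002927) on chromosome 4 from 4060683 to 4065592. Fgl2 (NM_008013) is on chromosome 5 from 20878491 to 20884204, and Areg (NM_009704) on the same chromosome from 91568641 to 91577458. Fgl2 lies inside Ccdc146 and Ebi3 overlaps Gm16712, each on the opposite strand. The sources used here do not say whether counting used strand, and these overlapping genes were listed at no more than 1.58 and 1.14 CPM in any library. Among the relatives beside them, Ereg next to Areg and Il20 near Il10 had 0 reads in all 8 libraries.

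Promoter sequence was available for 3 of the 5 genes in a RefSeq table of build GRCm38.p6, whose coordinates differ from those of mm9. These 3, Areg, Fgl2 and Ebi3, are the genes that were higher in monoclonal than in polyclonal cells of at least 1 kind, and their sequences are shown to set side by side what precedes each start. Each is the 250 bases before the gene's start, on the plus strand, at chr5:91139349-91139598 for Areg, chr5:21372423-21372672 for Fgl2 and chr17:55952373-55952622 for Ebi3. Capitals mark the AP-1 motif TGANTCA, the cyclic AMP response element (CRE) TGACGTCA and the TATA motif TATAAA, found on either strand.
Areg: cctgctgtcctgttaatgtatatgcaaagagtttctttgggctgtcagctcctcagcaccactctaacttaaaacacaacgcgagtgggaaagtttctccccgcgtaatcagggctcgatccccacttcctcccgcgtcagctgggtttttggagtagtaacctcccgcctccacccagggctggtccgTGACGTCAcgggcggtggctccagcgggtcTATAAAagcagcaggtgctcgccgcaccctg
Fgl2: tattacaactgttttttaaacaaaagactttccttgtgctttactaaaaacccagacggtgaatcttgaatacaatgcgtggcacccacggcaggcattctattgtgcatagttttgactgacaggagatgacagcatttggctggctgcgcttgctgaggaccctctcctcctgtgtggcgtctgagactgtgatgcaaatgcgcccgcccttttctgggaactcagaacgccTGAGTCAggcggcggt
Ebi3: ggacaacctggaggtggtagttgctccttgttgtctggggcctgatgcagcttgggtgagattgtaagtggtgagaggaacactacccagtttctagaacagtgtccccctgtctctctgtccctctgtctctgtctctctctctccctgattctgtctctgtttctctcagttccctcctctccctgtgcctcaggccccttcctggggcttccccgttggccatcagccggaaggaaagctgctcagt

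The Areg window held the CRE motif 61 to 54 bases before the start and a TATA motif 31 to 26 bases before it. Of 32851 promoter windows of the same length, 1.55% held the CRE motif and 12.4% the TATA motif. The Fgl2 window held the AP-1 motif 16 to 10 bases before the start, as did 6.75% of windows, and the STAT motif TTCNNNGAA 36 to 28 bases before it, as did 7.02%. The NFAT core GGAAA, present in 55.6% of windows, occurred in each of the 3. The Ebi3 window held none of the other 4 motifs, and the matches did not overlap. A match is a string of letters and not a measured binding site.

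Il10, the classical suppressive cytokine of Treg cells, was rare in every group. The polyclonal Treg libraries had 7.74 (A) and 3.90 CPM (B), and the polyclonal non-Treg libraries 1.46 (A) and 1.36 CPM (B). The monoclonal Treg libraries had 2.17 (A) and 8.41 CPM (B), and the monoclonal non-Treg libraries 0.499 (A) and 1.10 CPM (B). Each Treg library lay above each non-Treg library. The share of all genes whose libraries lie apart in this way was not computed, here or for the genes below. The groups ran from polyclonal Treg (5.82 ± 2.71 CPM, SD, n = 2) and monoclonal Treg (5.29 ± 4.42), whose libraries overlapped, to polyclonal non-Treg (1.41 ± 0.0708) and monoclonal non-Treg (0.798 ± 0.422). The sum of 4 plasma cell markers was 134 (A) and 72.4 CPM (B) in polyclonal Treg libraries. It was 83.7 (A) and 65.7 CPM (B) in polyclonal non-Treg and 2.82 to 9.37 CPM in monoclonal libraries. The sum of 8 B cell markers was 28.9 (A) and 45.7 CPM (B) in polyclonal Treg libraries. The part of other cell types in the Il10 levels was not tested.

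Il10 was 6.63 times as high in monoclonal Treg as in non-Treg cells, a log2 fold change of 1.62 ± 0.52 (SE, adjusted p = 0.0355). In polyclonal mice the ratio was 4.14 and the log2 fold change 1.45 ± 0.52 (adjusted p = 0.126), and the difference of the 2 effects was 0.18 ± 0.74 (adjusted p = 0.916). Monoclonal and polyclonal Treg cells differed by -0.26 ± 0.52 (adjusted p = 0.762). The monoclonal call was lost without monoclonal Treg replicate B (log2 fold change 0.84, adjusted p = 0.258), when either monoclonal non-Treg library was left out (A, 0.208; B, 0.114), when either polyclonal non-Treg library, which enters through the shared spread, was left out (0.0579 and 0.0578), and in edgeR (0.0581). It was also lost with no filter (0.0851), with CD3 scaling (0.0723), without the trend and robust estimate (0.0777) and in a fit of the compared groups alone (0.0722), and was kept in DESeq2 (0.0147). The polyclonal effect had an adjusted p of 0.0398 without monoclonal Treg replicate A and 0.0428 without B.

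Il10ra, the ligand-binding chain of the interleukin-10 receptor, was expressed in every library. Its mean was 442 ± 23.5 (Treg) and 442 ± 66.6 CPM (non-Treg) in monoclonal mice, and 167 ± 1.62 (Treg) and 108 ± 9.37 CPM (non-Treg) in polyclonal mice. It was higher in monoclonal cells by 1.40 on the log2 scale within Treg (adjusted p = 3.2e-06) and 2.02 within non-Treg cells (adjusted p = 4.7e-08), and in polyclonal Treg over non-Treg cells by 0.62 (adjusted p = 0.0079). Myeloid cells also carry this receptor, and the dendritic cell marker sum was higher in monoclonal libraries. Within monoclonal mice that sum was 583 to 638 CPM in Treg and 1961 to 2269 CPM in non-Treg cells, while Il10ra averaged 442 CPM in both. The part of myeloid cells in the result was not tested. Il10rb, the second chain, averaged 110 and 110 CPM in monoclonal Treg and non-Treg cells and 92.8 and 63.3 CPM in polyclonal ones, and was higher in monoclonal than polyclonal non-Treg cells by 0.78 (adjusted p = 0.00427). Stat3, the transcription factor the receptor activates, was called in none of the 5 comparisons by limma (adjusted p from 0.192 to 0.471), and its unadjusted p was under 0.05 in 1 of them.

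Ebi3 was detected in every library and was highest in monoclonal Treg cells. The monoclonal Treg libraries had 36.4 (A) and 37.8 CPM (B), and the monoclonal non-Treg libraries 20.3 (A) and 26.8 CPM (B). The polyclonal Treg libraries had 18.5 (A) and 24.5 CPM (B), and the polyclonal non-Treg libraries 2.85 (A) and 4.65 CPM (B). The monoclonal non-Treg and polyclonal Treg libraries overlapped, and the polyclonal non-Treg libraries lay below all others. Polyclonal Treg cells were 5.74 times as high as polyclonal non-Treg cells, a log2 fold change of 2.26 ± 0.29 (adjusted p = 0.000145).

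In monoclonal mice the Treg effect on Ebi3 was 0.65 ± 0.29 (adjusted p = 0.123), and it was smaller than the polyclonal one by 1.61 ± 0.41 on the log2 scale (adjusted p = 0.0232). Among non-Treg cells Ebi3 was 6.29 times as high in monoclonal as in polyclonal libraries (log2 fold change 2.38 ± 0.29, adjusted p = 2.36e-05). Within Treg cells the monoclonal level was 1.72 times the polyclonal one (0.77 ± 0.29, adjusted p = 0.0656). Dendritic cells can also express Ebi3, and 8 of 9 of their markers were higher in monoclonal than polyclonal non-Treg cells (12.1% of all genes). The sums of the 9 were 1961 and 2269 against 70.31 and 70.29 CPM. Within monoclonal mice these sums were lower in Treg cells (638 and 583 CPM), where the mean of Ebi3 was 1.57 times as high. The part of dendritic cells in the result was not tested. The difference of the effects missed the threshold when monoclonal non-Treg replicate A (adjusted p = 0.0563) or B (0.165) was left out, without polyclonal non-Treg replicate A (0.122), with no filter on low values (0.0587) and without the trend and robust estimate of the spread (0.0546). The Treg comparison had an adjusted p of 0.0498 in DESeq2 and 0.0476 without polyclonal Treg replicate B.

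The partner chains of Ebi3 were nearly absent. Il12a had 15 reads in polyclonal Treg replicate A, 6 in monoclonal non-Treg replicate A and 0 in the other 6 libraries. Il27 had 19 reads in monoclonal non-Treg replicate B, 2 (A) and 3 (B) in the polyclonal non-Treg libraries, and 0 in the other 5. Neither passed the filter on low values, so no difference was tested. Il6st, which encodes the gp130 chain used by interleukin-27 and interleukin-35 receptors, measured 116 ± 0.453 CPM in monoclonal Treg and 481 to 505 CPM as the mean of each other group. It fell by 2.05 on the log2 scale in monoclonal Treg against non-Treg cells (adjusted p = 2.3e-07) and differed by 0.05 in polyclonal mice (adjusted p = 0.91). The difference of those effects was -2.10 (adjusted p = 2e-05). Il27ra, the specific chain of the interleukin-27 receptor, averaged 391 CPM in monoclonal and 595 CPM in polyclonal non-Treg cells, a log2 fold change of -0.61 (adjusted p = 0.00251), and was called in no other comparison by limma.

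Of the 13 partner, receptor and signalling genes of interleukin-10, interleukin-27 and interleukin-35 that could be tested, 3 rose and 2 fell in monoclonal Treg cells (10.8% and 13.6% of all genes), with a median of 0.00702 (-0.0154 over all genes). The count that fell is near that background. Il12rb1, a chain of the interleukin-12 receptor, rose by 2.15 (adjusted p = 2.7e-06), and Il12rb2, its partner, fell by 1.69 (adjusted p = 0.0075). In polyclonal Treg cells 3 rose and 0 fell (4.63% and 3.28% of all genes), with a median of 0.119 (0.00216 over all genes). Bcl3, an NF-kB cofactor induced by interleukin-10, rose by 1.11 there (adjusted p = 0.012).

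Fgl2 separated the mice. The polyclonal Treg libraries had 8.52 (A) and 17.1 CPM (B), and the polyclonal non-Treg libraries 8.29 (A) and 6.65 CPM (B). The monoclonal Treg libraries had 303 (A) and 214 CPM (B), and the monoclonal non-Treg libraries 145 (A) and 214 CPM (B). Each monoclonal library was above each polyclonal one by a wide margin. Within a kind of mouse, Treg and non-Treg libraries nearly met, at 213.7 against 213.5 CPM in monoclonal and 8.52 against 8.29 CPM in polyclonal mice.

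Monoclonal Treg cells exceeded polyclonal Treg cells in Fgl2 by 4.28 ± 0.29 on the log2 scale (20.2 times, adjusted p = 9.32e-08), and monoclonal non-Treg cells exceeded polyclonal ones by 4.39 ± 0.29 (24.0 times, adjusted p = 4.22e-08). Both calls held in each alternative that was run. The Treg effect was 0.53 ± 0.29 in monoclonal mice (adjusted p = 0.204) and 0.64 ± 0.29 in polyclonal mice (adjusted p = 0.241), and the effects differed by -0.11 ± 0.40 (adjusted p = 0.907). Scaling to the CD3 genes moved the median of all genes from -0.0154 to -0.544 in the monoclonal Treg effect and the share of calls that were higher from 44.4% to 8.5%, and Fgl2 differed by -0.04 there. The share that was higher moved from 39.6% to 4.95% for the difference of the effects and from 62.2% to 95.3% between the non-Treg groups. Without polyclonal Treg replicate A its polyclonal effect was 1.10 (adjusted p = 0.0142).

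Markers of dendritic cells and macrophages, which can express Fgl2, moved with the mouse as Fgl2 did. Of 9 dendritic cell markers, 8 were higher in monoclonal than in polyclonal Treg cells, and 8 of 9 in non-Treg cells (12.1% of all genes in each comparison). Within monoclonal mice the order was opposite, and 6 of these 9 markers fell in Treg cells (13.6% of all genes). The summed level of the 9 was 583 and 638 CPM there against 1961 and 2269 CPM in non-Treg cells. The mean of Fgl2 was 1.44 times as high in Treg cells. No dendritic cell marker was at 0 in both libraries of a monoclonal group, and Batf3 and Clec9a were at 0 in both polyclonal Treg libraries. The part of these cells in the Fgl2 levels was not tested.

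**Figure D3:**
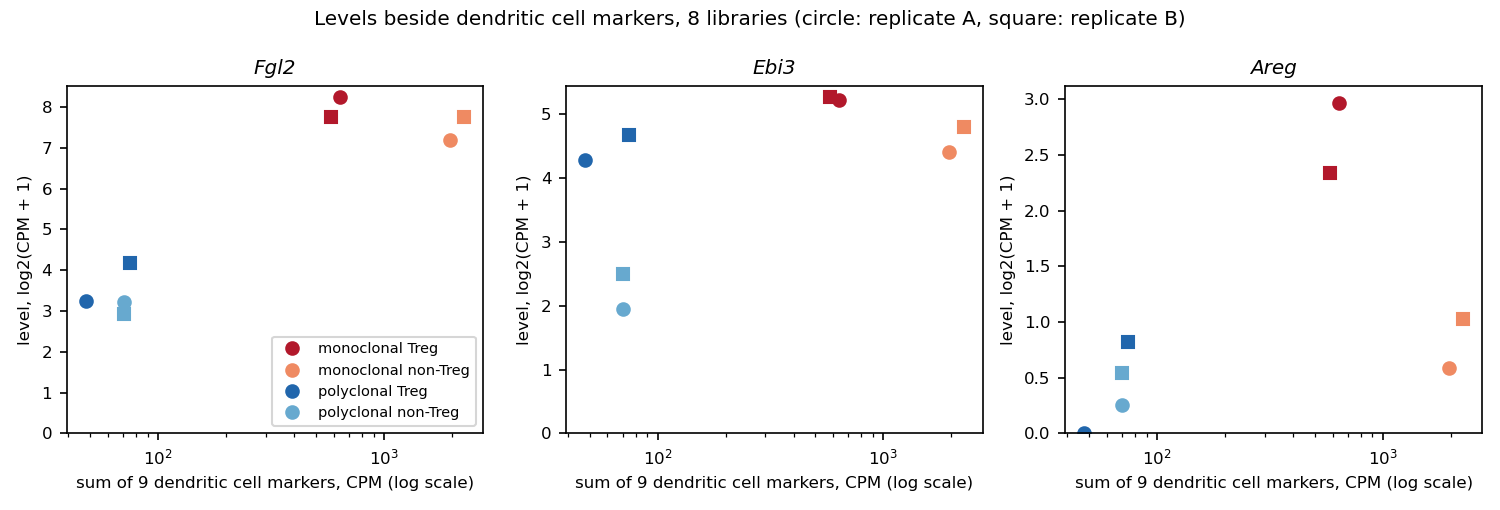
Level of Fgl2, Ebi3 and Areg on the log2(CPM + 1) scale (vertical axes) against the summed CPM of 9 dendritic cell markers (horizontal axis, log scale) in the 8 libraries. Each point is 1 library; the monoclonal non-Treg libraries have the highest marker sums, at 1961 and 2269 CPM, and the monoclonal Treg libraries the highest Ebi3 and Areg and the highest mean Fgl2.

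The receptors of secreted Fgl2 were low. Fcgr2b averaged 0.624 ± 0.524 (Treg) and 0.542 ± 0.128 CPM (non-Treg) in polyclonal mice, and 8.51 ± 0.980 (Treg) and 17.4 ± 0.0832 CPM (non-Treg) in monoclonal mice. It was higher in monoclonal cells in both comparisons, by 2.58 within Treg (adjusted p = 0.00031) and 3.58 within non-Treg cells (adjusted p = 1.1e-05), while its Treg effects of -0.96 and 0.04 were not called (adjusted p = 0.10 and 0.99). Fcgr3 was higher in monoclonal than polyclonal Treg cells by 2.22 (adjusted p = 0.008), with 9.86 (A) and 2.43 CPM (B) against 0.710 (A) and 0 CPM (B). Monoclonal Treg replicate A also had the higher neutrophil marker sum, 1422 against 260 CPM in B. Its macrophage and monocyte marker sum was higher too, 504 against 313 CPM. The part of these cells in the Fcgr3 value was not tested. The relative Fgl1 had 0 reads in all 8 libraries.

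Areg transcripts were concentrated in monoclonal Treg cells. The monoclonal Treg libraries had 6.83 (A, 104 reads) and 4.07 CPM (B, 72 reads), and the monoclonal non-Treg libraries 0.499 (A, 9 reads) and 1.03 CPM (B, 16 reads). In polyclonal Treg cells it had 0 reads in replicate A, which allows up to 0.213 CPM, and 0.761 CPM (15 reads) in B, and in polyclonal non-Treg cells 0.190 and 0.452 CPM (3 and 7 reads). Both monoclonal Treg libraries lay above the other 6, and the monoclonal non-Treg and polyclonal Treg libraries overlapped.

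Areg was 7.12 times as high in monoclonal Treg as in monoclonal non-Treg cells, a log2 fold change of 1.85 ± 0.47 (adjusted p = 0.0105). It was 14.3 times as high in monoclonal as in polyclonal Treg cells (2.25 ± 0.47, adjusted p = 0.00311). The polyclonal Treg effect was 0.01 ± 0.47 (adjusted p = 1.0), and it changed sign in 2 alternative settings, at -0.45 with a pseudocount of 0.1 and -0.03 with CD3 scaling. The difference of the 2 Treg effects was 1.84 ± 0.67 and did not pass the threshold (adjusted p = 0.104). The monoclonal Treg call was lost on read counts in edgeR (adjusted p = 0.209) and DESeq2 (0.0912), with a pseudocount of 0.1 (0.121), and when monoclonal non-Treg replicate A (0.0941) or B (0.0523) was left out, and the call between Treg cells was lost in edgeR (0.0945).

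Basophils, mast cells and neutrophils can also make amphiregulin. The sum of 7 basophil and mast cell markers was 89.9 (A) and 42.5 CPM (B) in the monoclonal Treg libraries, 237 and 294 CPM in the monoclonal non-Treg libraries, and 6.90 to 21.6 CPM in the polyclonal ones. Kit, which other blood progenitors also express, made up most of that sum, averaging 59.98 CPM (Treg) and 260.0 CPM (non-Treg) in monoclonal mice. The basophil protease Mcpt8 was at 0 in both monoclonal non-Treg libraries and averaged 0.559 CPM in monoclonal Treg cells, and Hdc averaged 3.65 and 4.22 CPM. Fcer1a and Ms4a2 were at 0 in both monoclonal Treg libraries. Of the 5 of these markers that were tested, 0 rose and 1 (Kit) fell in monoclonal Treg cells, near the shares of all genes (10.8% and 13.6%). The sum of 8 neutrophil markers was 14.9 to 49.2 CPM in the polyclonal libraries, 1422 (A) and 260 CPM (B) in the monoclonal Treg libraries, and 477 (A) and 84.2 CPM (B) in the monoclonal non-Treg libraries. Of these 8, 7 were higher in monoclonal than polyclonal Treg cells (12.1% of all genes). In the monoclonal Treg effect 0 were called (10.8% of all genes were higher and 13.6% lower). Their median log2 fold change in that effect was nevertheless 1.66 (-0.0154 over all genes), with wide differences between replicates. The part of these cells in the Areg levels was not tested.

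Among other EGF family genes, 2 of 9 tested rose and 1 fell in monoclonal Treg cells (10.8% and 13.6% of all genes), with a median of -0.0376 (-0.0154 over all genes). The share that fell is near that background. Erbb2, a receptor of the family, rose by 2.05 from 7.48 ± 0.00307 to 34.1 ± 3.14 CPM (adjusted p = 0.0009), and Erbb3 rose by 0.95 (adjusted p = 0.044). Hbegf, another ligand of the EGF receptor, fell by 1.84, from 3.48 ± 2.10 to 0.197 ± 0.279 CPM (adjusted p = 0.011). In polyclonal Treg cells 0 rose and 1 fell (4.63% and 3.28% of all genes), Rhbdf2, a cofactor of the sheddase Adam17, by 0.96 (adjusted p = 0.0026). Adam17, which releases amphiregulin from the membrane, averaged 146 to 177 CPM and was called in none of the 5 comparisons by limma (adjusted p from 0.146 to 0.866, with 1 unadjusted p under 0.05). Egfr, the amphiregulin receptor, had 92 (A) and 58 reads (B) in the monoclonal non-Treg libraries, 42 (A) and 0 (B) in the monoclonal Treg, 5 (A) and 0 (B) in the polyclonal non-Treg and 0 in both polyclonal Treg libraries. It was higher in monoclonal than polyclonal non-Treg cells by 2.23 (adjusted p = 0.0114). Erbb4, another receptor of the family, had 0 reads in all 8 libraries.

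Penk was higher in Treg than in non-Treg cells of both mice and higher in polyclonal than in monoclonal cells of both kinds. The polyclonal Treg libraries had 51.4 (A) and 98.2 CPM (B), and the polyclonal non-Treg libraries 8.73 (A) and 10.3 CPM (B). The monoclonal Treg libraries had 2.43 (A) and 9.77 CPM (B), and the monoclonal non-Treg libraries 0.333 (A) and 0.967 CPM (B). Both polyclonal Treg libraries lay above all others, and both monoclonal non-Treg libraries below. Monoclonal Treg replicate B overlapped the polyclonal non-Treg libraries.

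The Treg effect on Penk was 2.78 ± 0.49 in polyclonal mice (7.84 times, adjusted p = 0.00198) and 1.91 ± 0.49 in monoclonal mice (9.38 times, adjusted p = 0.0107). The 2 effects differed by -0.87 ± 0.69 (adjusted p = 0.491), a difference that was 0.23 in edgeR and 0.25 in DESeq2 on read counts. Monoclonal Treg cells were lower than polyclonal ones by 3.57 ± 0.49 on the log2 scale (adjusted p = 0.000105), and monoclonal non-Treg cells lower than polyclonal ones by 2.70 ± 0.49 (adjusted p = 0.000948). The monoclonal Treg call was lost without monoclonal Treg replicate B (1.08, adjusted p = 0.111), without monoclonal non-Treg replicate A (0.104), with no filter (0.0506), and without the trend and robust estimate (0.0590).

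Most other genes of the opioid system had few or no reads. Of 12 listed precursors, processing enzymes, receptors and the degrading enzyme Mme found in the table, 3 could be tested. The opioid receptor genes Oprd1 and Oprk1 and the precursors Pdyn and Pnoc had 0 reads in all 8 libraries. Oprm1 had 2 reads in monoclonal non-Treg replicate A, Oprl1 had 5, 5 and 3 reads in 3 polyclonal libraries, and both had 0 elsewhere. Pomc, another opioid precursor, had 6 to 34 reads in each library. Of the processing enzymes, Pcsk2 had 0 reads in all 8 libraries. Pcsk1 had 3 (A) and 1 reads (B) in the monoclonal non-Treg libraries, 5 in polyclonal non-Treg replicate A and 0 elsewhere. Furin, a protease of the constitutive secretory pathway, averaged 98.3 to 118 CPM and was called in none of the 5 comparisons by limma, with 0 unadjusted p under 0.05. Cpe, the carboxypeptidase that trims enkephalins, was lower in monoclonal Treg cells (0.0657 ± 0.0929 CPM) than in polyclonal Treg cells (4.54 ± 0.820 CPM), with a log2 fold change of -2.37 (adjusted p = 0.0025).

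Replicates A and B differed more in some of the 5 genes than in most genes. In monoclonal Treg cells, A was below B by 1.57 for Il10 and 1.65 for Penk on the log2(CPM + 1) scale, where the median absolute difference over all genes tested was 0.273. In polyclonal Treg cells Penk was lower in A by 0.92 while Il10 was higher in A by 0.83, with a median of 0.295. Between the mice, the order of A and B was the same for Penk and opposite for Il10.

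Per kilobase of transcript, the gene with the highest mean level differed between the mice. In monoclonal Treg cells Fgl2 stood at 68.6 CPM per kilobase, Ebi3 at 31.9, Areg at 4.57, Penk at 4.33 and Il10 at 4.07. The order of the last 3 was not stable, since Areg was first of them in replicate A (5.74) and last in B (3.41). In polyclonal Treg cells Penk was first at 53.1 CPM per kilobase, then Ebi3 at 18.5, Il10 at 4.48, Fgl2 at 3.4 and Areg at 0.319. Il10 was above Fgl2 in replicate A (5.96 against 2.26) and below it in B (3.01 against 4.54). In polyclonal non-Treg cells Penk was again first, at 6.77 CPM per kilobase.

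The wider lists place these genes among other Treg mediators. Of 13 other effector mediators tested, 8 rose and 2 fell in monoclonal Treg cells (10.8% and 13.6% of all genes), with a median of 1.52 (-0.0154 over all genes). In polyclonal Treg cells 8 rose and 1 fell (4.63% and 3.28% of all genes), with a median of 0.678 (0.00216 over all genes). The cytotoxic protease Gzmb resembled Areg, with 44.7 ± 1.28 CPM in monoclonal Treg cells and group means of 4.20 to 7.84 CPM in the others. Gzmb was higher in monoclonal Treg than non-Treg cells by 2.39 (adjusted p = 0.00077), and this effect exceeded the polyclonal one by 1.97 (adjusted p = 0.049). Lrrc32, which presents latent TGF-β, resembled Penk in being lower in monoclonal than in polyclonal Treg cells, by 3.75 on the log2 scale (adjusted p = 7.4e-05).

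Of 16 transcription factors and receptors of effector and tissue Treg cells, 11 rose and 2 fell in monoclonal Treg cells, with a median of 1.9. In polyclonal Treg cells 11 rose and 0 fell, with a median of 0.998. The shares and medians of all genes were those given above for each effect. Foxp3 is among the 11 in both mice, and its call was set by the sort on its reporter. Between the Treg cells of the 2 mice, 6 were higher and 4 lower in monoclonal cells (12.1% of all genes each way), with a median of 0.141 (-0.025 over all genes). The largest differences were Pparg, a factor of adipose tissue Treg cells, at 4.81 (adjusted p = 3.6e-07), the interleukin-33 receptor Il1rl1 at 4.30 (adjusted p = 1.5e-08), Klrg1 at 4.08 (adjusted p = 1.1e-07) and Bach2, a repressor of effector genes, at -3.16 (adjusted p = 1.2e-07). Maf and Prdm1, factors known to support Il10 transcription, rose in monoclonal Treg cells by 2.96 (adjusted p = 3.7e-08) and 1.99 (adjusted p = 4.1e-06), and in polyclonal Treg cells by 0.60 (adjusted p = 0.03) and 0.96 (adjusted p = 0.0036). Irf4 and Ahr, also linked to Il10 transcription, averaged 78.8 and 40.0 CPM in monoclonal Treg against 96.9 and 60.96 CPM in monoclonal non-Treg cells and were not called there (adjusted p = 0.21 and 0.0696). Both rose in polyclonal Treg cells, by 1.08 (adjusted p = 0.000488) and 1.11 (adjusted p = 0.00757).

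**Figure D4:**
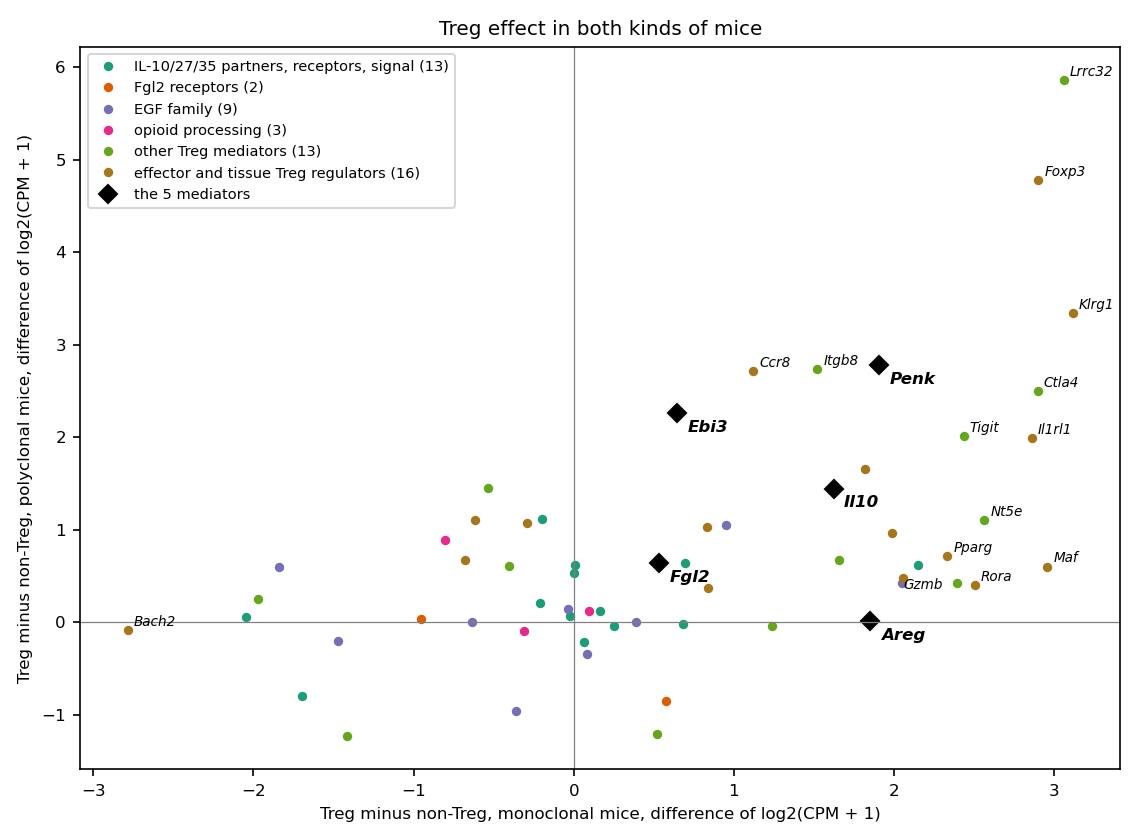
Treg minus non-Treg difference of log2(CPM + 1) in monoclonal mice (horizontal axis) and in polyclonal mice (vertical axis). Each dot is 1 tested gene of a wider list, with the number per list in the key, and the diamonds are the 5 genes; Areg lies at 1.85 and 0.01, Ebi3 at 0.65 and 2.26, and Penk at 1.91 and 2.78.

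Across the 8 libraries, the genes whose log2(CPM + 1) levels were most like each of the 5 were ranked among about 10118 genes by Pearson's r. For Fgl2 they were Tmem8 (r = 0.9987), Plekho2 and Crybg3, and for Penk they were Pdha1 (r = 0.9901), Twsg1 and Wnt3. For Ebi3 they were Slc39a13 (r = 0.9906), Tbc1d30 and Sdc4, for Areg Cdc42ep3 (r = 0.9858), Ctdsp1 and Gzmb, and for Il10 Nhlrc2 (r = 0.9771), Serinc5 and Crocc. A high r takes no account of the size of change, which could differ widely. Tmem8 was 1.36 times as high in monoclonal as in polyclonal Treg cells, against 20.2 times for Fgl2. Pdha1 was 1.22 times as high in polyclonal as in monoclonal Treg cells, against 12.3 times for Penk. Pdha1, Nhlrc2 and Crocc were called in none of the 5 comparisons by limma, while Gzmb was called in some. Among the 5 themselves, r was 0.763 for Ebi3 with Fgl2, 0.761 for Fgl2 with Areg, 0.698 for Il10 with Penk and -0.676 for Fgl2 with Penk. These values describe 8 libraries that share 4 groups and their depths, and r reflects both the group means and the differences between replicates within a group.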

How the data were processed

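The 8 libraries of sorted spleen CD4+ T cells were made from poly-dT selected RNA with strand kept and read from 1 end, per the labels' protocols. Per the submitters' processing notes, the build was mm9 and the tools, with no roles given, included STAR 2.4.1a, HOMER 4.7, edgeR, Trimmomatic 0.33, CASAVA 1.8.2 and FastQC 0.10.1. The authors deposited CPM values and transcript lengths. Libraries summed to 1000000, and 100% of values were multiples of what 1 read is worth, within 0.01 read, which gave back the read counts used in the count tests.

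The main test was limma 3.58.1 (R 4.3.3) on log2(CPM + 1), with trend and robust estimation, on 12881 genes reaching 1 CPM in 2 or more libraries. It fitted 4 group means to 8 libraries (4 residual degrees of freedom). P-values were 2-sided and adjusted by Benjamini and Hochberg across those genes, with a threshold of 0.05. Errors are SD for CPM and SE for fold changes. The scripts were tested on simulated data. Alternatives were edgeR 4.0.16 and DESeq2 1.42.0 on the read counts, a pseudocount of 0.1, other filters, TMM and CD3 scaling (summed CPM of the CD3 genes made equal), no trend, fits of the compared groups alone, a replicate block and leaving out each library.

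The 5 genes, the wider lists and the naming rule were chosen with earlier results of these data known. The rule names all 5 genes, up to 4 called genes per list by size of change, direct partners and receptors whatever they show, and the 3 genes most alike in pattern. Prdm1, Irf4, Ahr and, in polyclonal mice, Maf fall outside it and were named after their values were seen.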

Additional observations from a re-analysis of the deposited data

Results flagged for a closer look

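The Treg effect on Ebi3 differed between the mice by -1.61 on the log2 scale, monoclonal minus polyclonal (limma, adjusted p = 0.0232), and is listed because the test of the difference itself passed the threshold. Each Treg library was above each non-Treg library of its own mouse. The values were 36.4 and 37.8 against 20.3 and 26.8 CPM in monoclonal mice. In polyclonal mice they were 18.5 and 24.5 against 2.85 and 4.65 CPM. With 2 libraries in each group such an order carries little weight, and the share of all genes with it was not computed.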

How the results depend on the processing

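The calls of Ebi3 and Penk in the polyclonal Treg effect, of Fgl2 and Penk between Treg groups, and of Fgl2, Ebi3 and Penk between non-Treg groups held in each alternative that gave a value. Of the 5 genes, 3 were called in the monoclonal Treg effect, but 1 was called in edgeR, 1 with no filter and 1 with no trend, and 0 to 3 when 1 library was left out. For the difference of the Treg effects the count of 1 became 0 with no filter and 0 with no trend, and 0 to 1 when 1 library was left out. Areg did not reach the filter of 5 CPM and has no value there. Among all genes, the monoclonal Treg effect had 3143 calls, 4838 with CD3 scaling and 1306 (without monoclonal non-Treg replicate B) to 3774 with 1 library left out. The polyclonal effect had 1018 calls, 562 with CD3 scaling, 582 with no trend, 673 from the groups compared alone and 429 (without polyclonal non-Treg replicate B) to 1231 with 1 library left out. The difference had 1185 calls, 756 with no filter, 685 with no trend and 361 (without monoclonal non-Treg replicate B) to 1658 with 1 library left out. Between Treg groups there were 3116 calls, 1945 with CD3 scaling and 1721 from those groups alone. Between non-Treg groups there were 2505 calls, 4413 from those groups alone and 1373 (without monoclonal non-Treg replicate B) to 3227 with 1 library left out. Fits of the groups alone and those with a library left out use fewer samples; for the other settings the cause was not tested.

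These values changed sign, none of them called. Fgl2 in the monoclonal Treg effect was -0.037 with CD3 scaling. Areg in the polyclonal Treg effect was -0.45 with a pseudocount of 0.1, -0.0283 with CD3 scaling and -0.39 to 0.42 with 1 library left out. In the difference of the effects, Penk was 0.228 in edgeR and 0.25 in DESeq2, Il10 was -0.16 with CD3 scaling and -0.61 to 0.96 with 1 library left out, and Fgl2 was -0.57 to 0.36 with 1 library left out. Between Treg groups Il10 was -1.05 to 0.52 with 1 library left out.

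Libraries of different groups share only the letters A and B, and deviations of same-lettered libraries correlated at -0.093 to 0.0969. A replicate block on the letter gave 3032, 945, 1094, 2969 and 2393 calls in the monoclonal effect, the polyclonal effect, their difference, the Treg and the non-Treg comparison, and changed no call among the 5 genes. Depth limits Areg most, which had 0 to 16 reads in the 6 libraries outside monoclonal Treg cells.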
